A study of Homo sapiens with 54 samples.

Results

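The cells described here held RNA of CD34, MYB and PTPRC together, in single-cell libraries of macrophage differentiation from H1, a human embryonic stem cell line, on a 3D porous microscaffold. They were selected on their own counts of unique molecular identifiers (UMIs), which count captured RNA molecules. Each had at least 1 UMI of CD34, at least 2 of MYB and at least 1 of PTPRC. Each also had fewer than 2 UMIs of CDH5, fewer than 10 of MPO, AZU1, ELANE and PRTN3 together, and fewer than 3 of CD3D, RUNX3 and NKG7 together. Of the 26455 cells with at least 1000 UMIs, at least 500 genes and under 15% mitochondrial counts, 56 met the rule. They made up 20 of 6767 cells at day 7 (0.296%, exact binomial 95% interval 0.181 to 0.456%), 17 of 11727 at day 9 (0.145%, 0.0845 to 0.232%) and 19 of 7961 at day 12 (0.239%, 0.144 to 0.373%).

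The study set macrophages made in the 3D scaffold against macrophages made in 2D culture, and the labels call the cells macrophages at every day, the earliest included. The single-cell data are 1 library of 3D culture at each of days 7, 9 and 12, so no test between days exists and intervals cover counting error only. Bulk RNA was measured in 3D cultures at day 12 (n = 4 libraries), day 16, day 19 and day 23 (n = 3 each) and in 2D cultures at day 12 (n = 4). Further 3D libraries carry FBS in their labels at days 16, 19 and 23 (n = 3 each), E. coli (n = 2), SP6A (n = 2) or SP14 (n = 2), of which the last 2 names are not explained. All groups share the H1 line. The labels give neither media nor cytokines and do not say whether libraries of a group came from separate cultures, so the p-values below measure only the spread between these libraries.

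During development, blood cells arise from hemogenic endothelium, vessel-lining cells that switch on the transcription factor RUNX1 and leave the vessel wall. CD34 is a surface protein of endothelium and of blood progenitors, MYB is a transcription factor that keeps progenitors dividing and immature, and PTPRC encodes CD45, the phosphatase found on white blood cells and their precursors. Progenitors co-express factors of several lineages at low level, such as GATA1 (erythroid, megakaryocyte, mast cell and eosinophil) and SPI1 (PU.1; macrophage and granulocyte), before 1 programme prevails.

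The 3 libraries held 182519366, 181385185 and 171887252 UMIs at days 7, 9 and 12, of which the selected cells held 822992, 385001 and 613665. The selected cells were deeper than the rest: their median was 35876 UMIs at day 7, 24353 at day 9 and 30258 at day 12, against 24509, 13252 and 17086 in the other cells of the same libraries. Their median mitochondrial share was also higher, 2.49, 4.13 and 5.94%, against 1.24, 1.54 and 2.37% in the other cells. A rule that asks for UMIs of 3 genes favours deep cells. When every cell was thinned to 5000 UMIs, 1, 1 and 3 cells still met it. Scrublet marked 1 selected cell as a doublet at day 7, 1 at day 9 and 0 at day 12, and the marked cells were kept. Of the barcodes that libraries shared (23 between days 9 and 7, 17 between days 12 and 7 and 24 between days 12 and 9), 0 belonged to a selected cell. In the bulk data, replicate 4 of 3D day 12 stood apart in the eosinophil granule genes described below, and those results are given with and without it.

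The 3 genes that define the cells were not met equally easily on the 3 days. The median selected cell held 3 UMIs of CD34 at days 7 and 9 and 2 at day 12, and 4.5, 3 and 2 UMIs of MYB at days 7, 9 and 12. PTPRC had a median of 1 UMI at days 7 and 9 and of 7 at day 12. At days 7 and 9 the rule therefore turned on a single PTPRC molecule: 15 of 20 and 9 of 17 selected cells had exactly 1, and 516 and 182 further cells failed for lack of PTPRC alone. At day 12, PTPRC excluded 1 cell on its own, while 74 failed on MYB alone and 44 on CD34 alone.

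A PTPRC molecule can also come from RNA free in the droplets. Among cells that passed the other 5 criteria, 3.73% had a PTPRC UMI at day 7 (20 of 536, 2.29 to 5.70%, median depth 33355 UMIs) and 8.54% at day 9 (17 of 199, 5.06 to 13.3%, depth 20629). In fibroblast-type cells, taken as cells with 20 or more UMIs of COL1A1 and COL3A1 and none of CDH5 and RUNX1, the share was 0.204% at day 7 (2 of 981, depth 25376) and 0.341% at day 9 (8 of 2347, depth 11530). The 95% intervals of counting did not overlap, but the sets also differ in depth and in cell type. How much of the PTPRC RNA came from free RNA was not tested. At day 12 the shares were 95% of cells passing the other criteria (19 of 20, 75.1 to 99.9%) and 6.31% of fibroblast-type cells (187 of 2966). In cells with at least 2 UMIs of CDH5 and a RUNX1 UMI, taken here as hemogenic endothelium, the share was 1.35% at day 7, 12.6% at day 9 and 63.0% at day 12. PTPRC was thus not particular to cells without CDH5. By its values the day 12 set was not clearly endothelium alone. CD34 was in 95.2, 94.05 and 52.4% of the CDH5 and RUNX1 cells at days 7, 9 and 12, and SPI1 in 31.2, 28.6 and 63.4%.

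The cells left out by 1 PTPRC molecule were close to those kept at day 7. Of 4040 genes with 50 CPM (UMI counts pooled over the cells of a set and scaled to the same total) in either set, 46 were at least 2-fold higher and 15 at least 2-fold lower in the selected cells. RUNX1 stood at 1084 CPM in selected cells and 885 CPM in the 516 cells without PTPRC, SPN at 123 and 158 CPM, and ZBTB16 at 289 and 227 CPM. GATA1 stood at 79.0 and 143 CPM, and CD69 at 85.1 and 44.9 CPM. At day 9 the selected cells were further from the 182 cells just outside (122 of 4383 genes higher and 144 lower), with 270 against 109 CPM of GATA2, 114 against 46.9 of SPI1, 140 against 41.0 of CD69 and 610 against 147 of PRG2. At day 12, against the 44 cells that lacked only CD34, 141 of 4152 genes were higher in selected cells and 370 lower. CLC stood at 5412 CPM in selected cells and 22510 CPM outside, ANGPT1 at 132 and 12.1 CPM, and ZBTB16 at 225 and 71.0 CPM. CD69 stood at 199 and 207 CPM.

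Against the progenitor label, the data divide by day. Of 40 progenitor genes listed, 22, 23 and 19 reached 50 CPM in the selected cells or in the others at days 7, 9 and 12. Of these, 7, 12 and 8 were at least 2-fold higher in the selected cells and 3, 3 and 2 at least 2-fold lower. The list holds CD34, MYB and PTPRC, which the rule selects on, and without them 6 of 20, 10 of 20 and 6 of 16 were higher and 3, 3 and 2 lower. Over all genes, 155 of 4527, 341 of 4787 and 421 of 4636 were that much higher at days 7, 9 and 12, and 517, 748 and 977 that much lower. RUNX1 itself stood at 1084 CPM in selected cells at day 7, 1439 at day 9 and 715 at day 12, against 334, 295 and 295 CPM in the other cells. Over single cells it ran from 406 to 2790 CPM at day 7, from 0 to 3368 at day 9 and from 264 to 1984 at day 12, with medians of 908, 1437 and 770 CPM. SPN, the sialophorin CD43 that marks the first blood cells made in such cultures, stood at 123, 288 and 194 CPM, against 57.3, 59.5 and 43.5 CPM. Every selected cell had a UMI of SPN, from 30.5 CPM in the lowest cell at day 7 to 794 CPM in the highest at day 12. SPN UMIs were also found in 31.4, 39.5 and 46.5% of CDH5 and RUNX1 cells at days 7, 9 and 12 (median depths 27551, 21179 and 27530 UMIs) and, at day 12, in 63.7% of macrophage-type cells, with CSF1R and CD68 UMIs and no CD34, and 95.3% of granulocyte-type cells, with more UMIs of the granule genes than the rule allows (depths 31350 and 21048). Thinned to 5000 UMIs, it was in 60, 70.6 and 47.4% of selected cells, and at day 12 in 69.1% of granulocyte-type cells, above the selected cells of that day.

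GATA2, a factor needed for progenitor upkeep and for mast cells, stood at 87.5, 270 and 184 CPM at days 7, 9 and 12, against 58.9, 35.6 and 9.57 CPM in other cells. Cells that lacked only PTPRC had 108 CPM at day 7 and 109 at day 9, and those that lacked only CD34 had 166 at day 12. The GATA2 level was thus above that of cells just outside the rule mainly at day 9. KIT, the stem cell factor receptor, was 30.4 CPM at day 7 (95% Poisson interval 19.7 to 44.8), 96.1 at day 9 (67.7 to 133) and 4.89 at day 12 (1.01 to 14.3). A KIT UMI was found in 30% of selected cells at day 7, near the 26.4% of CDH5 and RUNX1 cells (median depth 27551 UMIs). At day 9 it was in 76.5% of selected cells and 17.6% of CDH5 and RUNX1 cells (depth 21179), and at day 12 in 10.5% and 20.5% (depth 27530). KIT was thus highest at day 9 and near its detection limit at day 12.

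Several genes of adult-type stem cells were not detected. FLT3 and HLF had 0 UMIs in the selected cells on all 3 days. By the exact Poisson upper limit, 0 UMIs allow up to 4.48, 9.58 and 6.01 CPM at days 7, 9 and 12. Of 11 HOXA genes, 11, 9 and 10 were at 0. A count of 0 was common, with 19819, 21538 and 22159 of all 36601 genes at 0 in the selected cells at days 7, 9 and 12. The HOXA genes were low in the other cells too, where they summed to 11.5, 6.65 and 23.8 CPM. SPINK2 was at 8.51, 7.79 and 1.63 CPM and rested on 1 or 2 cells a day. MECOM, a stem cell and endothelial factor, was detected and stood at 54.7, 130 and 16.3 CPM in selected cells, against 482, 420 and 76.9 CPM in other cells, so it was at least 3-fold lower in them on each day.

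GATA1 and SPI1 were found together in single cells. By the lineages given above, GATA1 also belongs to eosinophils and SPI1 to granulocytes, so the pair need not mark mixed lineages. UMIs of both GATA1 and SPI1 were present in 13 of 20 selected cells at day 7, 13 of 17 at day 9 and 17 of 19 at day 12. Each was also found elsewhere: in CDH5 and RUNX1 cells GATA1 was in 26.9, 34.5 and 5.12% at days 7, 9 and 12, and SPI1 in 31.2, 28.6 and 63.4%, with median depths of 27551, 21179 and 27530 UMIs. At day 12 SPI1 was in 99.3% of macrophage-type and 93.6% of granulocyte-type cells, and GATA1 in 2.83 and 18.2% (depths 31350 and 21048). In the 230 other day 12 cells at 10000 CPM of PRG2 or more, GATA1 was in 61.7% and SPI1 in 89.1% (depth 27600). The part of free RNA in these shares was not tested. In selected cells GATA1 was found in 80, 88.2 and 100%, and SPI1 in 85, 88.2 and 89.5%.

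**Figure D1:**
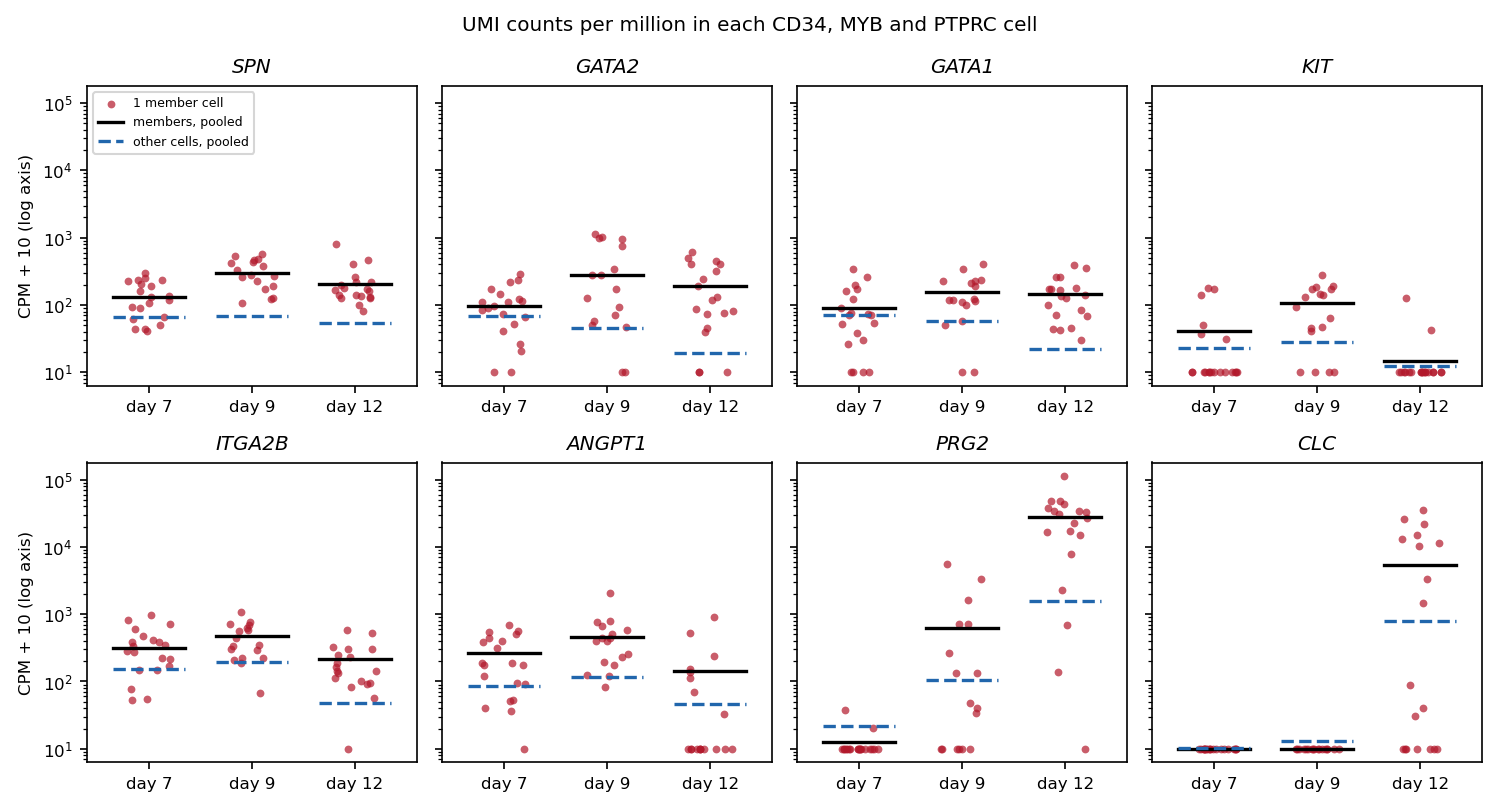
CPM plus 10 on a log axis for 8 genes, with 1 point for each selected cell at days 7, 9 and 12, a black line for their pooled level and a dashed line for the other cells of the library. SPN lies above the pooled level of other cells in most selected cells on all 3 days, KIT is largely at 0 by day 12, and PRG2 spans 0 to 112627 CPM at day 12.

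Across all genes, 2631 reached 50 CPM in the pooled selected cells of every library, and 49 of them (1.86%) were at least 2-fold higher than in the other cells on all 3 days. Because the cells were chosen from these counts, this is a description and carries no test. The progenitor list held 4 of the 49 (RUNX1, SPN, ANGPT1 and MYB, the last used by the rule) among its 15 genes so measured, and the megakaryocyte list held 2 of 5 (ITGA2B and PLEK). A list of the endothelial to blood transition held 4 of 6, all 4 shared with those 2 lists (RUNX1, SPN, ANGPT1 and ITGA2B), and the other lists held 0. The 20 genes with the largest lowest fold were CD69, ZBTB16, PTH2R, ANGPT1, SLC37A1, MYB, PDGFC, TMEM164, ARHGEF6, GYPE, TXK, LRMP, MIR181A1HG, COL24A1, TEC, SLCO3A1, SLC24A3, CELF2, CSMD2 and TMEM173.

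CD69, a lectin of freshly activated white cells, stood at 85.1, 140 and 199 CPM in selected cells at days 7, 9 and 12, against 22.2, 28.4 and 32.4 CPM in the others. At day 12 the 44 cells that lacked only CD34 had 207 CPM, so its level was not particular to the selected cells. ZBTB16, the transcription factor PLZF, stood at 289, 460 and 225 CPM, against 79.3, 73.5 and 15.7 CPM. Its excess over the other cells was thus 3.65-fold at day 7, 6.25-fold at day 9 and 14.3-fold at day 12. ANGPT1, the ligand of the receptor TEK on endothelium, stood at 259, 455 and 132 CPM, against 74.3, 107 and 36.3 CPM. It was in 19 of 20 and 17 of 17 selected cells at days 7 and 9, but in 8 of 19 at day 12, where 39.5% of its UMIs came from 1 cell. The paired kinases TEC and TXK of white blood cell receptors were both among the 20. TEC had 258, 169 and 86.4 CPM and TXK 204, 418 and 127 CPM at days 7, 9 and 12. COL24A1, a collagen, stood at 441 and 558 CPM at days 7 and 9. At day 12 it stood at 55.4 CPM, and 94.1% of that came from 1 cell. At days 7 and 9 the cells that lacked only PTPRC had 339 and 463 CPM of COL24A1 and 226 and 316 CPM of ANGPT1. Neither gene was thus particular to the selected cells on those days.

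The summed levels of marker lists showed which other programmes were carried. Endothelial genes were lower in selected cells on each day: 826, 974 and 321 CPM at days 7, 9 and 12, against 2201, 2115 and 660 CPM in the others. Of the endothelial genes measured, 12 of 14, 9 of 13 and 1 of 3 were at least 2-fold lower and 0 higher; the list includes CDH5, which the rule caps. KDR, the main vascular growth factor receptor, was still present at 113 and 117 CPM at days 7 and 9 and stood at 4.89 CPM (3 UMIs) at day 12. Mesenchyme genes summed to 617, 623 and 235 CPM, against 2199, 3747 and 9322 CPM, and 0 of their measured genes were 2-fold higher. The endoderm list was at 9.72, 39.0 and 0 CPM.

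Erythroid genes were carried by a few cells. At day 7 they summed to 8970 CPM in selected cells and 10026 CPM in the others, but the median selected cell had 2299 CPM and the range ran from 330 to 60167 CPM. HBZ, an embryonic globin, was at 2485 CPM pooled while its median cell had 47.1 CPM, and 39.5% of its UMIs came from 1 cell. At days 9 and 12 the erythroid sum was 3764 and 947 CPM, against 10408 and 8949 CPM. Megakaryocyte genes summed above the other cells on all 3 days: 1450, 2408 and 1344 CPM, against 727, 1452 and 908 CPM. Of its 10 genes measured at day 12, 6 were at least 2-fold higher and 2 at least 2-fold lower. ITGA2B, the integrin CD41 of megakaryocytes and first blood cells, had 300, 457 and 209 CPM, against 145, 187 and 38.0 CPM. Cells that lacked only PTPRC had 385 and 404 CPM of ITGA2B at days 7 and 9, and those that lacked only CD34 had 111 at day 12. PF4, the platelet chemokine, was found in 2 selected cells on each day.

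Macrophage genes divided by day. The list summed to 784, 1192 and 2130 CPM in selected cells at days 7, 9 and 12, against 483, 815 and 7644 CPM in the others. Of its measured genes, 4 of 5 at day 7 and 4 of 8 at day 9 were at least 2-fold higher, with 1 and 3 at least 2-fold lower. CSF1R, the receptor for macrophage growth factor, was at 20.7 CPM in selected cells at day 7, 23.4 at day 9 and 3.26 at day 12, against 7.54, 13.6 and 127 CPM in the others. At day 12, 20 of the 24 measured genes of the list were at least 2-fold lower in the selected cells and 0 were higher. CD14 had 0, 0 and 4.89 CPM. AIF1, an actin-binding protein of monocytes and macrophages, stood above the other cells on all 3 days, with 253, 483 and 955 CPM, against 90.6, 128 and 659 CPM. Cells that lacked only PTPRC had 246 and 259 CPM of AIF1 at days 7 and 9, and those that lacked only CD34 had 478 at day 12. Granulocyte genes summed to 625, 610 and 2058 CPM, against 566, 824 and 3353 CPM, but the rule itself caps 4 of them.

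**Figure D2:**
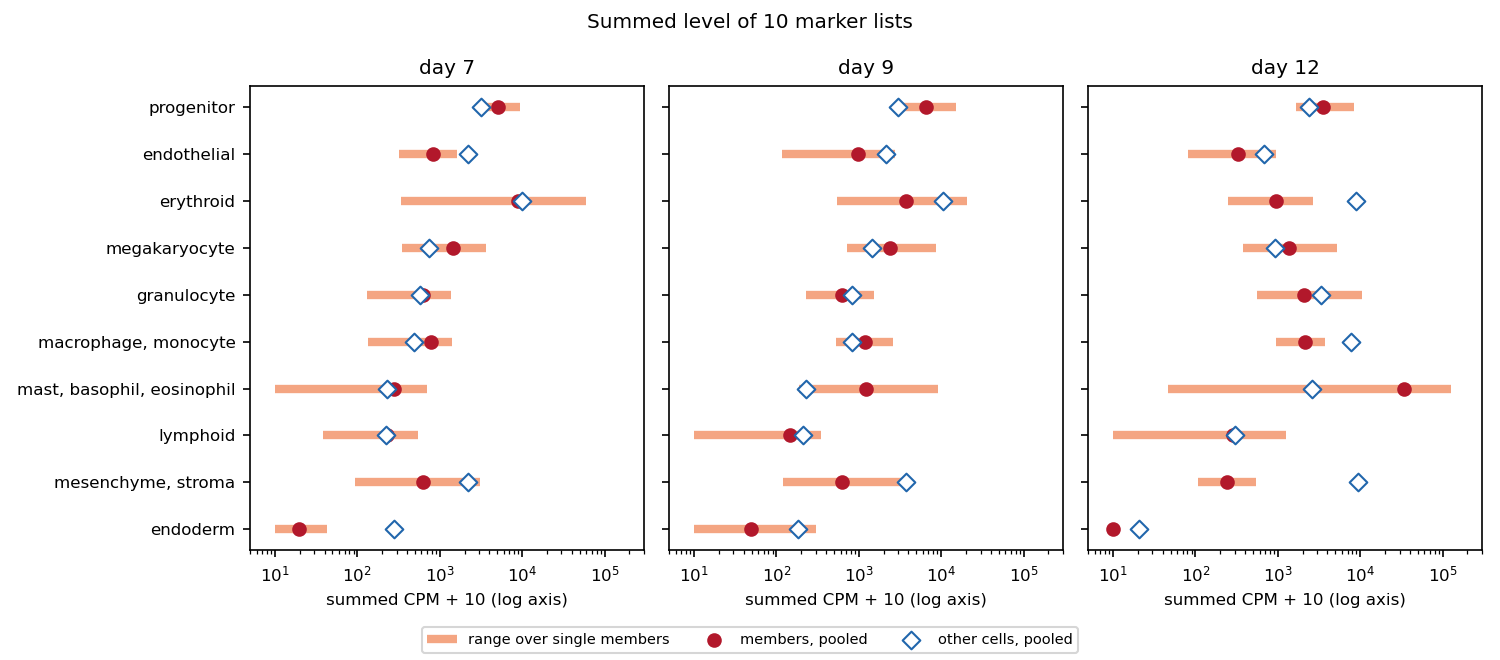
Summed CPM plus 10 on a log axis of 10 marker lists at days 7, 9 and 12, with filled circles for the pooled selected cells, open diamonds for the other cells and bars for the range over single selected cells. The mast, basophil and eosinophil list is at 34043 CPM in selected cells and 2557 CPM in the other cells at day 12, the widest excess of any list shown.

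At day 12 the leading genes of the selected cells were those of eosinophil granules, so on that day the data go against the name progenitor alone. PRG2, the major basic protein of eosinophils, stood at 2.43 CPM at day 7 (95% Poisson interval 0.294 to 8.78), 610 CPM at day 9 (535 to 694) and 27551 CPM at day 12 (27137 to 27969). The other cells of the 3 libraries had 11.6, 93.9 and 1571 CPM. At day 12 the median selected cell had 27266 CPM of PRG2 and the highest had 112627 CPM. CLC, the Charcot-Leyden crystal protein galectin-10, had 0 UMIs at days 7 and 9 and 5412 CPM at day 12, against 780 CPM in other cells. PRG3, a homologue of PRG2, had 0, 28.6 and 1646 CPM. EPX, the eosinophil peroxidase, had 0, 0 and 495 CPM, of which 76.3% came from 1 cell. The list of mast, basophil and eosinophil genes summed to 266, 1226 and 34043 CPM, against 220, 219 and 2557 CPM, and ran from 36.2 to 127773 CPM over single cells at day 12. The mast cell and basophil members CPA3, TPSAB1, TPSB2, MS4A2 and FCER1A were at 0 UMIs on all 3 days. HDC, the histamine-forming enzyme of mast cells and basophils, was detected at 6.08, 31.2 and 52.2 CPM, against 7.09, 3.03 and 4.63 CPM.

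PRG2 RNA was also spread thinly through the day 12 library. At least 1 PRG2 UMI was found in 94.7% of selected cells and in 80.0% of macrophage-type cells, taken as cells with CSF1R and CD68 UMIs and no CD34 (median depths 30258 and 31350 UMIs), so a single UMI of it is at the level of background. A level of 10000 CPM set cells apart: 14 of 19 selected cells reached it (73.7%, exact 95% interval 48.8 to 90.9%), against 230 of 7942 other cells (2.90%, 2.54 to 3.29%). At day 9 it was reached by 0 of 17 selected cells, which allows a share of up to 19.5% (exact limit), and by 15 of 11710 others. At day 7 it was reached by 0 of 20 and 0 of 6747. The 10000 CPM level was chosen with the values in view.

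Within day 12 the 14 PRG2-high cells differed from the other 5 selected cells and from the 230 PRG2-high cells outside. CLC stood at 7125 CPM in the 14 cells, 568 in the 5 and 18630 in the 230. In the 5, 86 of its 91 UMIs came from 1 cell with 7938 CPM of PRG2, and the other 4 cells had 32.7 CPM of CLC. PRG3 stood at 2226, 6.24 and 4909 CPM and EPX at 668, 6.24 and 2395 CPM in the same order. ANGPT1 ran the other way, with 28.7 CPM in the 14 cells, 424 in the 5 and 9.17 in the 230. ITGA2B stood at 126, 443 and 61.9 CPM and GATA1 at 99.3, 243 and 55.3 CPM. Of the 5 cells, 2 lay in the cluster led by PF4 and PPBP and held 60 of 68 ANGPT1, 52 of 71 ITGA2B and 27 of 39 GATA1 UMIs. Without them the remaining 3 had 120 CPM of ANGPT1, 285 of ITGA2B and 180 of GATA1. CLC, PRG3 and EPX were thus lower, and ANGPT1, ITGA2B and GATA1 higher, in the PRG2-high selected cells than in PRG2-high cells outside the rule. ANGPT1 rested on 13 UMIs in 4 of the 14 cells. MYB went the other way, with 101.5 CPM in the 14 and 158.4 in the 230. The rule itself parts these sets by CD34 and granule genes, so the differences are a description and their cause was not tested. MPO cannot be compared in this way because the rule caps it. Of the 230 cells outside, 38 had a CD34 UMI (16.5%), 80% had MYB and 80.4% had PTPRC.

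Receptors and factors of the eosinophil lineage were then read in the same 3 sets. IL5RA, the interleukin 5 receptor, was in 12 of the 14 PRG2-high selected cells, 1 of the other 5 and 75.7% of the 230, while 2.37% of macrophage-type cells had a UMI of it. CSF2RB, the chain shared by the receptors of interleukin 3, interleukin 5 and GM-CSF, stood at 4.86, 23.4 and 275 CPM in selected cells at days 7, 9 and 12, against 3.53, 6.55 and 21.2 CPM in the others. At day 12 it was in all 14 PRG2-high selected cells (311 CPM), in 4 of the other 5 (175 CPM) and in 72.2% of the 230 (161 CPM), so it was not limited to PRG2-high cells. CEBPE, a factor of late granulocytes and eosinophils, stood at 137 CPM in the 14, 6.24 in the 5 and 217 in the 230. TRDC, the constant region gene of the T-cell receptor delta chain, was in 13 of the 14 cells, 0 of the 5 and 56.5% of the 230, and in 0.868% of macrophage-type cells. The median depths of the 3 sets were close, at 30163, 30788 and 27600 UMIs.

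**Figure D3:**
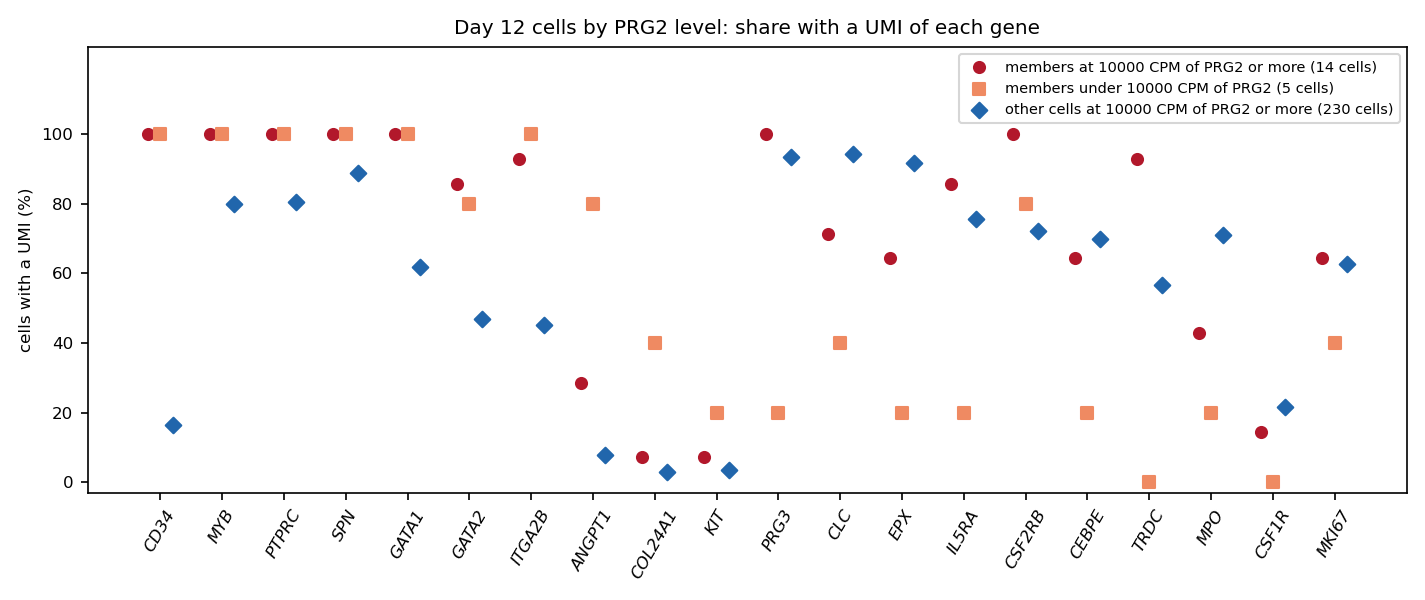
Share of day 12 cells with at least 1 UMI of each of 20 genes, for 14 selected cells at 10000 CPM of PRG2 or more (circles), 5 selected cells below it (squares) and 230 other cells at or above it (diamonds). TRDC (92.9 against 0%), PRG3 (100 against 20%) and IL5RA (85.7 against 20%) part the circles from the squares most, while CLC is in 71.4 and 40%. CD34, ANGPT1 and ITGA2B are in 16.5, 7.83 and 45.2% of the cells shown as diamonds.

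Selected cells lay nearer to each other on later days. Among the 15 nearest cells of a selected cell, computed without the genes of the rule, 2% were selected cells at day 7, 7.84% at day 9 and 20% at day 12, where selected cells were 0.296, 0.145 and 0.239% of the library. At day 7, 14 of the 20 lay in a cluster of 939 cells led by COL24A1, PLEK, PF4 and SELP, 3 lay in a cluster led by S100A9, CD3D and NKG7, 2 in one led by HBZ and 1 in one led by MME and PDLIM3. At day 9, 16 of 17 lay in a cluster of 1825 cells led by COL24A1, LINC02694, SELP and PF4. At day 12, 17 of 19 lay in a cluster of 261 cells led by TRDC, CLC, EPX, PRG3 and PRG2, and 2 in a cluster led by PF4 and PPBP. The selected cells were at most 6.51% of any cluster and so form no cluster of their own.

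Between days 9 and 7 of the selected cells, of 4423 genes with 50 CPM on either day, 323 (7.30%) were at least 2-fold higher at day 9 and 223 (5.04%) at least 2-fold lower. Of 13 erythroid genes, 8 were lower and 0 higher (median log2 fold -1.63, against -0.05 over all genes). These are pooled counts, and the summed erythroid level of the median selected cell was 2299 CPM at day 7 and 1705 CPM at day 9. HBZ stood at 135 CPM at day 9, against 2485 CPM at day 7, and HBE1 at 36.4 CPM, against 666 CPM. ALAS2, the first enzyme of erythroid heme synthesis, stood at 10.4 CPM at day 9, against 177 CPM at day 7. The day 7 cell with most UMIs of the gene held 42.2% for HBE1 and 43.8% for ALAS2. Without that cell the log2 folds were -3.47 and -3.32. For HBZ a few day 7 cells held most UMIs. Of the 2045 HBZ UMIs at day 7, 4 cells held 1987, 2 of them in the HBZ-led cluster, and without these 4 cells HBZ was at 93.2 CPM at day 7, below day 9. Of 9 megakaryocyte genes, 5 were higher and 0 lower, and of 23 progenitor genes, 4 were higher and 1 lower.

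Other genes set days 7 and 9 apart. NTS, the peptide neurotensin, was in 1 of 17 selected cells at day 9 (7.79 CPM) and in 19 of 20 at day 7 (162 CPM). CXCL8, the neutrophil attractant interleukin 8, had 143 CPM in 6 cells at day 9 and 0 UMIs at day 7. With the day 7 count set to the floor of 3 UMIs it was 39.2-fold higher at day 9. NR4A3, an early response nuclear receptor, stood at 146 CPM at day 9, against 4.86 CPM at day 7. High folds of ERBB4, CCL3 and AC008415.1 came from a single cell each, which held 100, 98.0 and 97.4% of the day 9 UMIs.

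Between days 9 and 12 the lists parted. Of 4480 genes, 437 (9.75%) were at least 2-fold higher at day 12 and 781 (17.4%) at least 2-fold lower. Of 22 progenitor genes, 3 were higher and 11 lower (median log2 fold -0.92, against -0.11 over all genes; 2 and 11 of 19 without the genes of the rule), and of 11 genes of the endothelial to blood transition, 0 were higher and 7 lower. Granulocyte genes were 5 higher and 0 lower of 7, and mast, basophil and eosinophil genes 4 higher and 0 lower of 7. CLC was 694.5-fold higher at day 12 when its 0 UMIs at day 9 were set to the floor of 3 UMIs. PRG3 was 57.6-fold and PRG2 45.1-fold higher. PRSS57, a serine protease of granulocyte precursors, stood at 275 CPM at day 12, spread over 17 of 19 cells, against 5.19 CPM at day 9 (2 UMIs, interval 0.629 to 18.8). TRGC1, a T-cell receptor gamma constant gene, was in 15 of 19 cells at day 12 (148 CPM) and had 1 UMI at day 9.

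Genes lower at day 12 came from several lists. Of 11 erythroid genes 5 were lower and 1 higher, and of 5 endothelial genes 3 were lower and 0 higher. HBG2, a fetal globin, stood at 24.4 CPM at day 12, against 1894 CPM at day 9, where 2 of 17 cells held 666 of its 729 UMIs and the rest gave 197.5 CPM. FLT1, a vascular growth factor receptor, stood at 4.89 CPM (3 UMIs), against 293 CPM, and the transcriptional corepressor RUNX1T1 at 1.63 CPM (1 UMI), against 158 CPM. LMO2 (68.4 CPM at day 12, against 288), TAL1 (39.1, against 122) and MEIS1 (153, against 408), all factors of early blood formation, were each at least 2-fold lower at day 12. MYCN, a growth-promoting factor, stood at 99.6 CPM at day 7, 70.1 at day 9 and 1.63 at day 12. GATA1 (79.0, 146 and 137 CPM at days 7, 9 and 12), LYL1 (205, 174 and 269) and IKZF1 (103, 80.5 and 166) did not share that course. The PF4 difference rested on 1 day 9 cell, which held 94.9% of the UMIs, and RNASE2 on 1 day 12 cell, without which its log2 fold was 1.40.

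**Figure D4:**
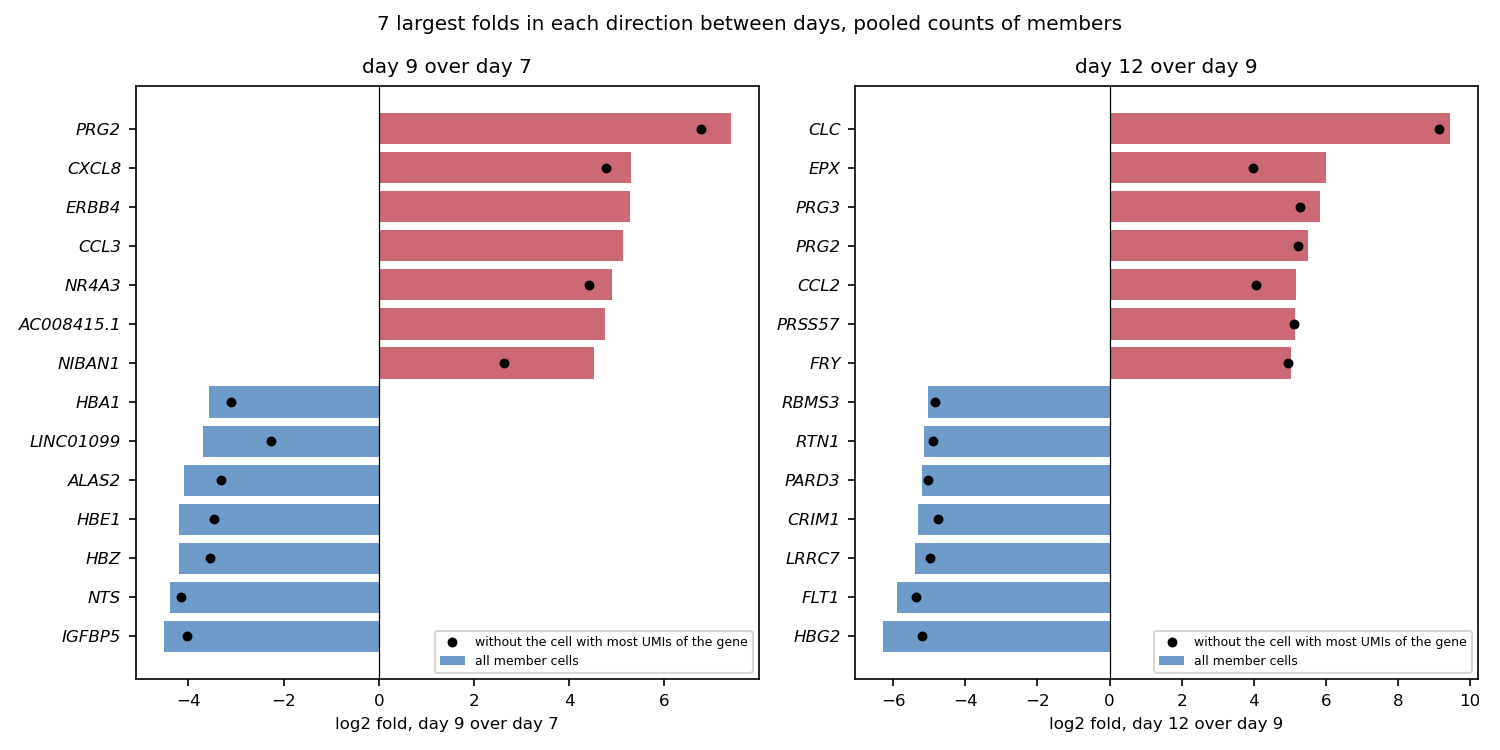
Log2 folds within selected cells for the 7 genes with the largest fold in each direction, at day 9 over day 7 and at day 12 over day 9, from pooled counts with 3 UMIs as the floor. Dots give the fold without the cell that held most UMIs of the gene, and no dot is drawn where 3 or fewer UMIs then remained on both days. PRG2 leads at day 9 and CLC, EPX, PRG3 and PRG2 lead at day 12, while globin genes lie at the low end.

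Cell cycle phases were called after thinning each cell to 5000 UMIs. G1 was called in 60% of selected cells at day 7, 47.1% at day 9 and 36.8% at day 12 (7 of 19, exact interval 16.3 to 61.6%), against 65.6, 63.4 and 72.4% of the other cells. The day 12 interval lies below the share in the other cells, and those at days 7 and 9 contain it. These intervals cover counting error within a library only and give no test between the sets. The cells were also chosen on MYB, which keeps progenitors dividing, so their phases are not independent of the selection. The part of the selection was not tested. MKI67, a protein of dividing cells, stood at 108, 143 and 119 CPM in selected cells and 82.2, 88.1 and 129 CPM in the others, and so was not higher at day 12. In the day 12 cells that lacked only CD34 it stood at 143 CPM, and in the 230 other PRG2-high cells at 132 CPM. MKI67 was thus not particular to the selected cells. Of the measured S and G2/M genes at day 12, 6 of 20 and 8 of 30 were at least 2-fold higher in selected cells and 0 lower. Over all genes 421 of 4636 were that much higher and 977 lower. The S and G2/M counts are against all other cells of the library only. Phase calls read free RNA too, whose part here was not tested, and at 3000 UMIs the G1 share at day 9 was 76.5%.

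Bulk libraries, which the choice of cells did not use, were searched for the same genes in TPM, a level scaled for transcript length and library total. In bulk RNA, fewer cells of a type and less RNA per cell cannot be told apart. CD34 was near 0 in both culture types at day 12: 0.17, 0.56, 0.85 and 0.19 TPM in the 3D libraries and 0.89, 0.33, 0.27 and 1.01 TPM in the 2D libraries, which overlap. MYB stood at 0.05, 0.11, 0.41 and 0.06 TPM in 3D and 1.62, 1.51, 0.76 and 1.01 TPM in 2D, and the ranges do not overlap. Both lie under the mean of 1 TPM asked of a gene and were not tested. PTPRC stood at 22.6, 25.1, 32.7 and 41.1 TPM in 3D and 29.3, 19.1, 24.1 and 17.7 TPM in 2D and did not pass the test (log2 change 0.40 ± 0.24 SE, limma adjusted p = 0.229).

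Among genes of the progenitor list tested in bulk at day 12, more were lower than higher in 3D against 2D. Some of the list is also carried by macrophage-type cells of day 12 (median depth 31350 UMIs). PTPRC was in 99%, RUNX1 in 98.5% and SPN in 63.7% of them, but MYB in 5.02%, GATA2 in 1.74% and KIT in 1.28%. Which cells gave the bulk changes of listed genes, here and between days below, was not tested. With limma on log2(TPM + 1) and Benjamini-Hochberg adjustment over 13131 genes, 1710 (13%) were higher and 3249 (24.7%) lower in 3D. Of 21 progenitor genes tested, of 40 listed, 2 were higher and 9 lower, with a median log2 change of -0.83 where all genes had -0.21. With median-ratio scaling all genes had a median of -0.04 and were split 2387 higher and 2538 lower, and the list kept 2 higher and 9 lower with a median of -0.64. RUNX1 averaged 19.3 ± 5.92 TPM in 3D and 68.2 ± 11.5 TPM in 2D (SD, n = 4 each; log2 change -1.82 ± 0.27 SE, limma adjusted p = 0.00148). LYL1, a factor related to TAL1, averaged 22.9 ± 8.54 TPM in 3D and 166.7 ± 15.7 TPM in 2D (-2.87 ± 0.24, limma adjusted p = 0.000145). NFE2, a factor of platelet and red cell formation, averaged 4.12 ± 2.03 and 58.7 ± 9.45 TPM (-3.63 ± 0.32, limma adjusted p = 0.000167). GFI1B (-2.81), TAL1 (-1.15), IKZF1 (-0.96) and FLI1 (-0.83) were lower too. In each of these 7 genes the 4 libraries of 3D lay below the 4 of 2D.

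GATA2 was 0.22, 0, 0.05 and 1.74 TPM in 3D and 9.89, 5.68, 0.35 and 14.1 TPM in 2D. Its ranges overlap and its call was unstable (log2 change -2.18, limma adjusted p = 0.0423): it was lost without any 1 of 3D replicates 1, 2 or 3 or 2D replicates 1, 2 or 4, with log2 changes of -1.75 to -2.15. The GATA2 call was also lost with a pseudocount of 0.1 (-3.84) and without the filter on low values (-2.18). GATA1, which belongs to the erythroid list, was 0, 1.15, 2.25 and 0 TPM in 3D and 14.3, 19.03, 19.1 and 30.5 TPM in 2D (-3.69, limma adjusted p = 0.000508). ITGA2B was at most 1.14 TPM in 3D and at least 18.6 TPM in 2D (-4.44, limma adjusted p = 9.82e-05). KIT and ANGPT1 were at most 0.09 and 0.07 TPM in 3D and 0.06 and 0.72 TPM in 2D. The 2 progenitor genes that were higher in 3D were CD48, a white blood cell adhesion protein, with 164.2 ± 17.8 TPM in 3D and 58.8 ± 12.6 TPM in 2D (1.48 ± 0.20, limma adjusted p = 0.000925), and CD164, a sialomucin, with 87.7 ± 15.6 and 52.1 ± 6.21 TPM (0.73 ± 0.18, limma adjusted p = 0.0133). Of the 21 genes 10 did not pass the test, among them SPN with 15.9 ± 1.90 TPM in 3D and 20.4 ± 5.92 TPM in 2D.

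Of the 20 genes highest in the selected cells, 11 were tested in bulk: 2 were higher in 3D, 0 were lower and 9 did not pass (median log2 change -0.16). CD69 stood at 5.43, 7.88, 9.88 and 7.57 TPM in 3D and 1.43, 1.6, 4.56 and 3.36 TPM in 2D (1.28 ± 0.31, limma adjusted p = 0.0118). CELF2, an RNA-binding protein, averaged 18.2 ± 3.45 TPM in 3D and 10.1 ± 0.834 TPM in 2D (0.77 ± 0.18, limma adjusted p = 0.0110). ZBTB16 was low in both, with 0, 0.98, 2.16 and 0 TPM in 3D and 0.67, 0.64, 4.60 and 5.69 TPM in 2D.

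The eosinophil granule genes that led the selected cells at day 12 were higher in the 2D libraries. PRG2 stood at 2.21, 2.99, 0 and 131.8 TPM in 3D and 273.0, 393.7, 362.4 and 479.9 TPM in 2D (log2 change -5.85 ± 1.29 SE, limma adjusted p = 0.0084). EPX was listed at 0, 0, 0 and 6.37 TPM in 3D and was 7.31, 9.59, 10.6 and 16.04 TPM in 2D (-2.80, limma adjusted p = 0.0101). In both genes replicate 4 of 3D was the one 3D library near the 2D range. Without it, the log2 change was -7.31 for PRG2, -3.52 for EPX, -1.56 for RUNX1, -3.09 for LYL1, -3.34 for NFE2 and -3.46 for GATA1, all still called lower. CLC was listed at 0 in 3 libraries of 3D and at 228.4 TPM in replicate 4, against 72.4, 88.6, 87.7 and 117.4 TPM in 2D. It did not pass with that library (-4.55, limma adjusted p = 0.0593) and passed without it (-6.51). PRG3 was listed at 0, 0, 0 and 41.3 TPM in 3D and was 14.7, 50.9, 38.6 and 89.1 TPM in 2D, so the ranges overlap. Its call (-4.02, limma adjusted p = 0.0312) was lost without 3D replicate 1, 2 or 3 or 2D replicate 2, 3 or 4, with log2 changes of -3.57 to -4.04, and held without 3D replicate 4 (-5.37). It was also lost without the filter on low values (-4.02). PRSS57, spread over most selected cells at day 12, was at most 3.42 TPM in 3D and at least 30.1 TPM in 2D (-3.75, limma adjusted p = 0.000262). Of the 6 tested genes of the mast, basophil and eosinophil list, 0 were higher and 3 lower.

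**Figure D5:**
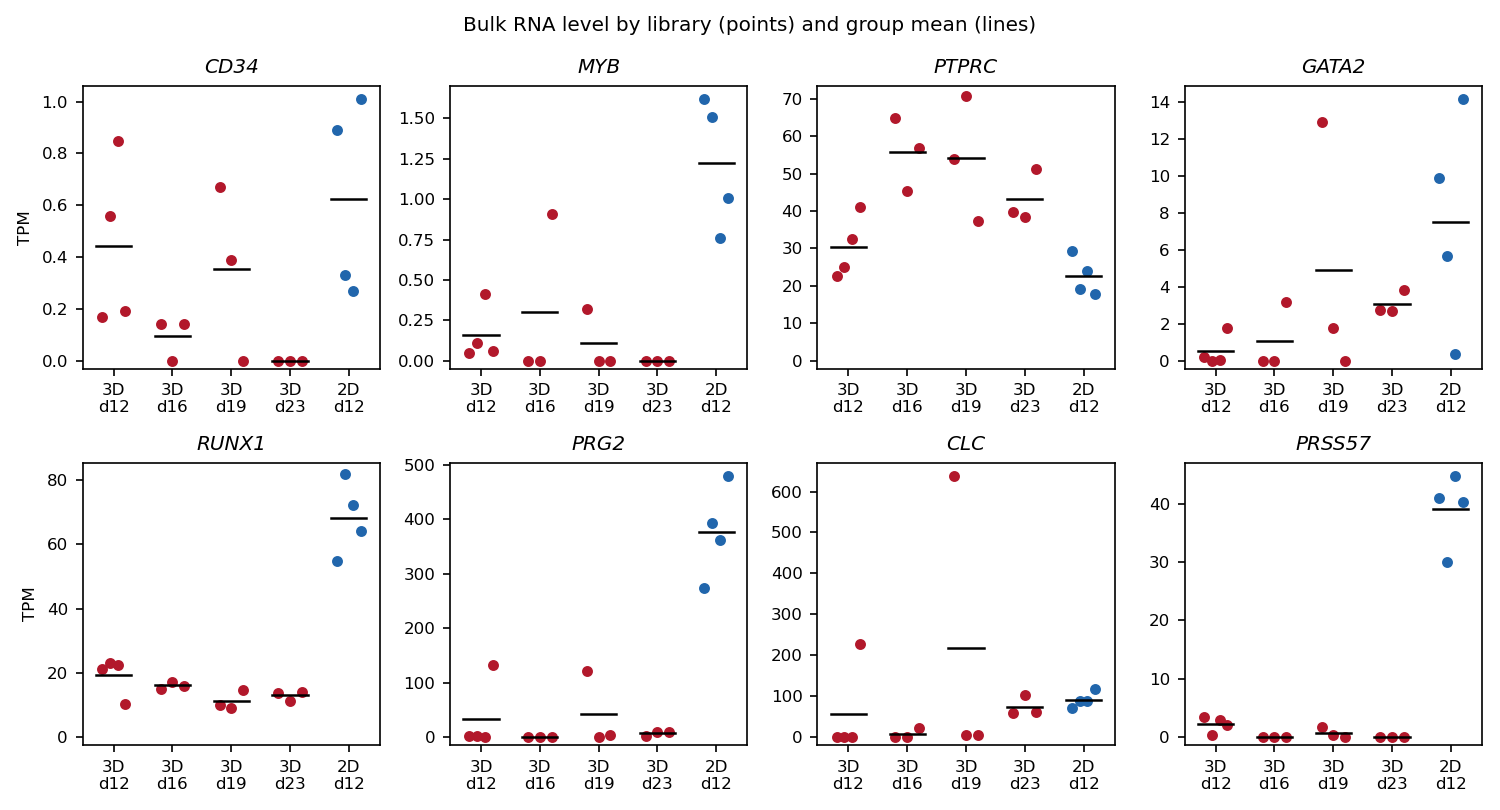
TPM of 8 genes in each bulk library of 3D culture at days 12, 16, 19 and 23 and of 2D culture at day 12, with lines for group means, each panel on its own linear axis. RUNX1 and PRSS57 are lower in every 3D library than in every 2D library, CD34 lies at or below 1.01 TPM throughout, and PRG2 and CLC are carried by single libraries at 3D days 12 and 19.

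In later 3D libraries CD34 and MYB stayed near 0. CD34 was 0.17, 0.56, 0.85 and 0.19 TPM at day 12, 0.14, 0 and 0.14 at day 16, 0.67, 0.39 and 0 at day 19, and listed at 0 in all 3 libraries at day 23. MYB was at most 0.41 TPM at day 12, at most 0.91 at day 16 and 0.32 at day 19, and listed at 0 in all 3 libraries at day 23. KIT and ANGPT1 were listed at 0 in every library of days 16, 19 and 23. None of these were tested, being under the filter on low values.

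The comparisons of days 16, 19 and 23 with day 12 share the same 4 day 12 libraries, so they are not independent of each other. Over 12795 genes tested with limma, 2043 (16%) were higher and 1317 (10.3%) lower at day 16, 1302 (10.2%) and 1272 (9.94%) at day 19, and 1916 (15%) and 2809 (22%) at day 23. With median-ratio scaling the day 16 split was 1415 higher and 1808 lower. Of 18 progenitor genes tested, 3 were higher and 1 lower at day 16, 1 higher and 3 lower at day 19, and 4 higher and 6 lower at day 23. Scaled, these became 1 and 1, 1 and 3, and 4 and 5. Of the 8 tested genes of the mast, basophil and eosinophil list, 0 were called in either direction on each of these days. Of the 11 tested genes among the 20 highest in selected cells, 5 were higher and 1 lower at day 16, 3 and 1 at day 19, and 2 and 3 at day 23.

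Single genes took separate courses over the 3D days. TAL1 averaged 23.1 ± 10.0 TPM at day 12 (SD, n = 4), 13.9 ± 3.93 at day 16, 8.52 ± 2.69 at day 19 and 4.69 ± 2.44 at day 23 (n = 3 each). It was lower at day 23 (log2 change -2.07 ± 0.38 SE, limma adjusted p = 0.00126). At day 19 (-1.28, limma adjusted p = 0.0322) the call was lost without day 19 replicate 2 or 3 or day 12 replicate 2 or 3, with log2 changes of -1.03 to -1.37. The day 19 call of TAL1 was also lost without the filter on low values and in a fit of all 28 libraries of 3D (-1.285 in each). LYL1 was lower at day 19, with 8.93 ± 4.48 TPM at day 19 and 22.9 ± 8.54 TPM at day 12 (-1.29 ± 0.31, limma adjusted p = 0.0114), a call lost without day 19 replicate 2 (-1.09). IKZF1 was lower at day 23, with 13.03 ± 4.92 TPM at day 23 and 27.3 ± 5.15 TPM at day 12 (-1.05 ± 0.24, limma adjusted p = 0.00501). CD48 was lower on each later day, with 164.2 ± 17.8, 67.1 ± 4.68, 83.1 ± 11.7 and 82.7 ± 11.1 TPM at days 12, 16, 19 and 23 (limma adjusted p = 0.000344, 0.0026 and 0.00115), with log2 changes of -1.28, -0.98 and -0.98. In a fit of all 28 libraries of 3D the log2 changes were -1.28, -0.98 and -0.98 too, and the 3 calls were lost. CD69 averaged 7.69 ± 1.82, 2.30 ± 0.639, 1.41 ± 2.13 and 0.377 ± 0.326 TPM. It was lower at day 19 (-2.18, limma adjusted p = 0.00508) and day 23 (-2.66, limma adjusted p = 0.000693). The call at day 16 (-1.39, limma adjusted p = 0.038) was lost without any 1 of day 16 replicates 1, 2 or 3 or day 12 replicates 2, 3 or 4, with log2 changes of -1.23 to -1.52. It was also lost with a pseudocount of 0.1 (-1.705), without the filter on low values and in the fit of all 28 libraries of 3D (-1.391 in each).

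FLI1, a factor of megakaryocytes and endothelium, was higher at day 16 (1.48 ± 0.26, limma adjusted p = 0.00165) and day 19 (1.51 ± 0.26, limma adjusted p = 0.00195), with 6.75 ± 1.65, 20.4 ± 2.59, 21.4 ± 6.03 and 8.86 ± 2.48 TPM at days 12, 16, 19 and 23. SPN was higher at day 23, with 35.7 ± 3.23 TPM at day 23 and 15.9 ± 1.90 TPM at day 12 (1.13 ± 0.21, limma adjusted p = 0.00151). PTPRC was higher at day 16, with 55.7 ± 9.84 TPM at day 16 and 30.4 ± 8.34 TPM at day 12 (0.88 ± 0.27, limma adjusted p = 0.0307), a call lost under median-ratio scaling (0.65) and without day 16 replicate 1 or 3 or day 12 replicate 1 or 2 (0.75 to 0.86). It was also lost in the fit of all 28 libraries of 3D (0.877). At day 19 PTPRC did not pass (0.80, limma adjusted p = 0.0538) and passed without day 19 replicate 3 (1.04) or day 12 replicate 4 (0.96). RUNX1 did not pass at day 19 (-0.69, limma adjusted p = 0.0951) or day 23 (-0.48, limma adjusted p = 0.188), and passed on both days without day 12 replicate 4 (-0.94 and -0.73). CLC stood at 58.1, 103.4 and 60.3 TPM at day 23. Its change was not called with day 12 replicate 4 (4.22, limma adjusted p = 0.137) and was called without it (6.18).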

How the data were processed

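Single-cell values are UMI counts per gene and cell that the authors deposited as filtered matrices. Cell Ranger 7.1.0 made those of days 7 and 9 and 7.0.0 that of day 12, per the file headers, and GRCh38 is named in the submitters' processing notes. Bulk values are TPM that the authors deposited for 58735 genes in 32 libraries, mapped to hg38 per the submitters' processing notes. For the whole series the notes name HISAT2, DESeq2, HTSeq 0.11.1 and Trim Galore 0.4.4, without saying which step gave the TPM. The bulk libraries were made by a SMART-seq2 protocol per the labels. The depth of the bulk libraries is unknown from TPM, so no counting interval is given for them.

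The 56 cells and all gene lists were chosen with earlier results of these data known, and the cells were selected on the counts described here. Counts were pooled over the selected cells of a library and divided by their total (CPM), with exact Poisson 95% intervals. Folds used genes with at least 50 CPM in either set and 3 UMIs as the floor, and a fold of at least 2 was counted. Intervals cover counting error only. Named genes were the 20 with the largest lowest fold over the 3 libraries, and the 10 largest day folds in each direction; a few items are not reported here. Clusters and neighbours (scanpy 1.11.5, leidenalg 0.10.2; 2000 variable genes, 30 components, 15 neighbours, resolution 0.5) left out the genes of the rule. Scrublet used an expected rate of 0.06.

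Bulk comparisons used limma 3.58.1 in R 4.3.3 on log2(TPM + 1) for genes with a mean of at least 1 TPM, a Benjamini-Hochberg adjusted p of 0.05 and all genes tested. A fold on this scale understates the change of low genes. The limma fit was tested on simulated data. The 3D days were fitted together, and the FBS, E. coli, SP6A and SP14 libraries entered only a fit of all 28 libraries of 3D. Samples with the same replicate number in 3D and 2D at day 12 did not deviate together (correlations from -0.008 to 0.035), so no block was used. Alternatives were a pseudocount of 0.1, no filter, median-ratio scaling, the replicate block, each library left out, other limits of the cell rule and thinning to 5000 or 3000 UMIs. Leaving out the cell or the few cells with most UMIs of a gene, or 2 cells of another cluster, was added after the data were seen. The chromatin data of the series were not analysed here.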

Additional observations from a re-analysis of the deposited data

Results flagged for a closer look

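In groups of 4 bulk libraries, 29 genes were each examined in 3D and in 2D at day 12 for 1 library far from the other 3. Of these 58 tests 15 were positive, where the limit used is set for a chance rate of about 1 in 20. A gene listed at 0 in 3 libraries and above 0 in the other is always positive. That rate therefore does not hold for KIT, ANGPT1, IL5RA, CLC, EPX, PRG3 and TRDC, and the count of positives is no measure against chance. Replicate 4 of 3D day 12 was the library far from the others in 11 of the 15. It was the highest in PRG2 (131.77 TPM), CLC (228.35 TPM), EPX (6.37 TPM), PRG3 (41.28 TPM) and TRDC (3.8 TPM), in GATA2 (1.74 TPM), LYL1 (35.63 TPM) and CD164 (111.01 TPM), and at the edge of detection in IL5RA (0.03 TPM) and KIT (0.09 TPM). It was the lowest in RUNX1 (10.45 TPM). Replicate 3 of 3D day 12 was the highest in MYB (0.41 TPM) and ANGPT1 (0.07 TPM). Replicate 4 of 2D day 12 was the highest in IL5RA (0.65 TPM) and GFI1B (18.36 TPM). Genes that are high together in 1 library are not independent tests.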

How the results depend on the processing

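The share of cells that met the rule depends on its limits. It was 0.163% at day 7 with CDH5 at 0 UMIs, 0.367% at day 9 with MYB from 1 UMI and 0.113% at day 12 with MYB from 3 UMIs. After thinning to 5000 UMIs it was 0.0158% at day 7, 0.00985% at day 9 and 0.0395% at day 12, so depth limits how many such cells can be seen. Between days 9 and 7, 141 genes were higher and 85 lower with a minimum of 100 CPM, 742 and 650 with 20 CPM, and 597 and 459 after thinning. Between days 12 and 9 these were 220 and 362 with 100 CPM, and 860 and 1692 with 20 CPM; a lower minimum admits more genes. At 3000 UMIs the G1 share at day 9 was 76.5% and the S share 0%, and the cause was not tested. Of 36 single-gene folds between days, 27 moved little without the cell with most UMIs of the gene and 9 moved more.

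In bulk, 93 of 96 alternative counts stayed within 1.5 times. The exceptions came from the fit of all 28 libraries of 3D: 837 genes lower at day 16, and 853 higher and 722 lower at day 19. Leaving out 1 library gave 1250 to 1601 genes higher and 2762 to 2979 lower in 3D against 2D, 1430 to 1747 and 1020 to 1247 at day 16, 928 to 1297 and 885 to 1187 at day 19, and 1605 to 1737 and 2316 to 2596 at day 23. Of 919 alternative values of single genes, 858 kept their side of the threshold, 47 lost it, 14 gained it and 0 reversed. NFE2, not called on the later days, passed at days 16 and 23 in the 28-library fit (-1.75 and -1.65), at day 16 without day 16 replicate 3 (-2.26) and at day 19 without day 19 replicate 1 (-2.26).

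With the replicate block, 1402 genes were higher and 2708 lower in 3D against 2D, and 1551 and 1142 at day 16, 970 and 1011 at day 19, and 1617 and 2414 at day 23. The same-numbered libraries do not come from a stated shared source. For the days the replicate block in effect drops replicate 4 of day 12, which has no partner. It gained RUNX1 at days 19 and 23 (-0.94 and -0.73) and CLC at day 23 (6.18), and lost CD69 at day 16 (-1.39) and CD164 at day 23 (-0.61).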

Other observations

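Libraries of the remaining 3D groups were read for the same genes, with no comparison. The pair labelled E. coli correlated at 0.775, where pairs within the other groups correlated at 0.943 to 0.980. MYB was listed at 0 in the first E. coli library and stood at 8.93 TPM in the second, and CD34 was listed at 0 in both. PRG2 was 86.9 and 782.8 TPM in these libraries, CLC 875.06 and 877.18 TPM, PRG3 12.42 and 525.15 TPM, and GATA2 122.98 and 86.55 TPM. CLC was 261.63 and 267.22 TPM in the SP6A libraries and 135.45 and 136.81 TPM in the SP14 libraries. CD34 was at most 0.02 TPM in the SP6A and SP14 libraries and at most 0.2 TPM in the 9 FBS libraries.

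At day 9, where no selected cell reached 10000 CPM of PRG2, 15 other cells did. Of these, 11 had a CD34 UMI, 12 a MYB UMI and 11 a PTPRC UMI.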
